A study of Bombyx mori with 64 samples.

Results

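The fat body of the silkworm *Bombyx mori* was followed from the last days of larval feeding to the pupa with an array of miRNA probes. The 8 arrays of mixed-sex fat body in the metamorphosis experiment were taken by tissue and stage as labelled, and they stand for 4 of the 32 RNA specimens of the series and 8 of its 64 arrays. The stages were fifth-instar day 7 larvae, larvae at hour 0 of spinning, prepupae at hour 0 and pupae. The labels of the pupal specimen disagree, since 1 field gives day 1 and the title gives day 2 while its code gives day 1, so it is called pupae here. All animals were of the bivoltine strain DaZao, reared on mulberry leaves, and no stage was treated. Each stage is 1 RNA specimen hybridized to 2 slides, a and b, so the slides are technical replicates and n counts specimens. The labels do not say how many animals a specimen pooled. The same stages of body wall (4 specimens), silk gland (3 specimens, to the prepupa) and midgut (3 specimens, to the prepupa) were used only where the fat body was set against them.

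The fat body of insects is the central organ of metabolism and storage, with roles that vertebrates divide between liver and adipose tissue. It fills with lipid, glycogen and storage protein while the larva feeds, and in the change from larva to pupa, under ecdysteroids, its larval cells are broken down and remodelled. A miRNA is a short RNA that pairs with messenger RNAs and lowers their translation or stability, so a miRNA present at 1 stage only can set which messages are held back at that stage. The probes are given in the files as SW-1 to SW-106 with no miRNA names, and a share of the miRNAs was printed under more than 1 probe, so probes with like values need not be separate miRNAs. A signal printed in a legend of the study ties SW-7 to miR-1, the miRNA of muscle known from *Drosophila* and vertebrates. For the other probes no miRNA is named, and the lists of miRNA families were not applied.

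Probe values are normalized signals on a linear scale, scaled by 1 factor per array, and 1000 is the level from which the study called a miRNA expressed. The slides of a fat body specimen had a Pearson correlation of 0.962 to 0.988 over the 106 probes on the log2 scale, and the coefficient of variation over the 3 spots of a probe was 4.30% to 6.25% at the median of an array. The number of arrays limits the precision. The deposited names of all 8 arrays start with 1 shared number, which is taken here as a hybridization session. No label states a session. Their medians were 735.5 and 631 in day 7 larvae and 945 to 1065 at the later stages. Control spots set the prepupal arrays apart: zip21 lay above zip15 by 4.39-fold and 3.97-fold there, against at most 0.341 times zip15 on the other 6 fat body arrays, and the body wall of prepupae and the midgut of spinning larvae showed the prepupal order too. Spots named blank had signals of 187 and 215 on the prepupal arrays and 1184 to 2075 on the others, and spots named Blank had 10.8 to 146.5, so signals near 1000 lie within the range of one kind of blank spot. What these controls hold is not stated. Fewer cells of a type and less RNA per cell cannot be told apart in whole tissue.

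The 10 probes of highest mean log2 signal over the 4 stages were SW-45, SW-9, SW-27, SW-38, SW-18, SW-25, SW-58, SW-46, SW-72 and SW-53. Probes bind and label unequally, so signals are compared within a probe only. SW-45 had 62368 and 56940 on slides a and b in day 7 larvae, then 39528 and 48816 at spinning, 38641 and 38629 in prepupae and 41864 and 41454 in pupae. Both day 7 slides stood above all later slides, and the mean signal varied 1.54-fold over the 4 stages.

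Besides SW-45, the probes SW-38, SW-18, SW-25, SW-58, SW-72 and SW-53 varied less than 2-fold between stages. SW-38 had 23518 and 22431 at day 7, 21530 and 18357 at spinning, 15415 and 14521 in prepupae and 17549 and 16680 in pupae. SW-18 had 13210 and 13644, 19344 and 22832, 13671 and 14571, and 14977 and 14041 at the same stages in order. SW-25 and SW-58 ran side by side, with mean signals of 20490, 13042, 13391 and 11362 for SW-25 and of 17415, 11789, 11852 and 10826 for SW-58. Both were brightest at day 7. With every array centred on its own median, a change that raises day 7 against the rest, they passed the call as lower at all 3 later stages. SW-53 was the least steady of the 6, with mean signals of 5902, 11184, 11628 and 10756.

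More probes were expressed after day 7 than on it. At 1000 or more stood 41 of the 106 probes in day 7 larvae, 53 at spinning, 52 in prepupae and 52 in pupae. At all 4 stages 36 probes reached that level, 9 did so at the 3 later stages and not at day 7, and 0 did so at day 7 alone. At a threshold of 2000 the counts were 23, 28, 28 and 31. With centring on the array median they were 61, 66, 56 and 58, so the day 7 count no longer stood below those of prepupae and pupae. At 1 stage or more, 59 probes reached 1000. Of these, 28 differed 2-fold or more between their highest and lowest stage and 31 did not. Day 7 was the lowest stage for 21 of the 28 and the highest for 3, against 18 and 16 of the 39 such probes after centring.

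Each later stage was set against day 7 larvae. A probe was called where the stages differed at least 2-fold, the slides of the stages did not overlap and the brighter stage reached 1000, and since a stage is 1 specimen these calls carry no test. Spinning larvae had 17 of 106 probes higher (16.0%) and 3 lower (2.83%) than day 7 larvae. Prepupae had 18 higher (17.0%) and 3 lower (2.83%), and pupae had 22 higher (20.8%) and 3 lower (2.83%). The median log2 difference over all 106 probes was 0.65, 0.64 and 0.59 for spinning, prepupa and pupa, so the calls sit on a shift of the whole array. Relative to that shift, with every array centred on its median, the counts were 13 higher and 10 lower at spinning, 14 and 13 in prepupae and 15 and 10 in pupae. The share of higher among the called probes was 85.0%, 85.7% and 88.0% as deposited and 56.5%, 51.9% and 60.0% after centring.

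**Figure D1:**
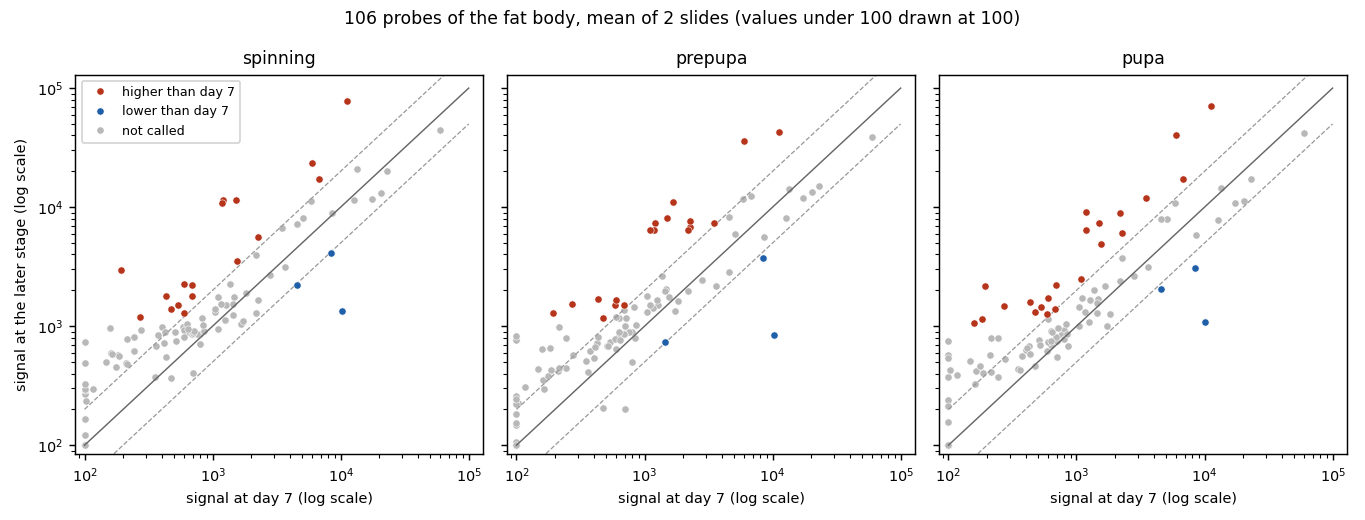
Normalized signal of each of the 106 probes in the fat body at spinning, in prepupae and in pupae (vertical axis) against day 7 larvae (horizontal axis), both on log scales and each point the mean of 2 slides. The solid line marks equal signals and the dashed lines a 2-fold difference. Of the probes, 17, 18 and 22 were called higher and 3 were called lower at each stage, and most points lie above the solid line.

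Higher than day 7 at all 3 later stages were 13 of the 106 probes: SW-1, SW-9, SW-17, SW-20, SW-27, SW-35, SW-41, SW-44, SW-54, SW-63, SW-73, SW-80 and SW-106. Over all 106 probes, 83 at spinning, 84 in prepupae and 84 in pupae had a log2 difference from day 7 above 0. Leaving the prepupal arrays out, 17 of the 106 probes were higher in both spinning larvae and pupae, and these were the 13 with SW-6, SW-46, SW-86 and SW-100. After centring, 8 of the 13 passed at all 3 stages, and these were SW-9, SW-17, SW-27, SW-35, SW-41, SW-63, SW-80 and SW-106. The comparisons share the day 7 arrays, so the sets are not independent of each other.

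**Figure D2:**
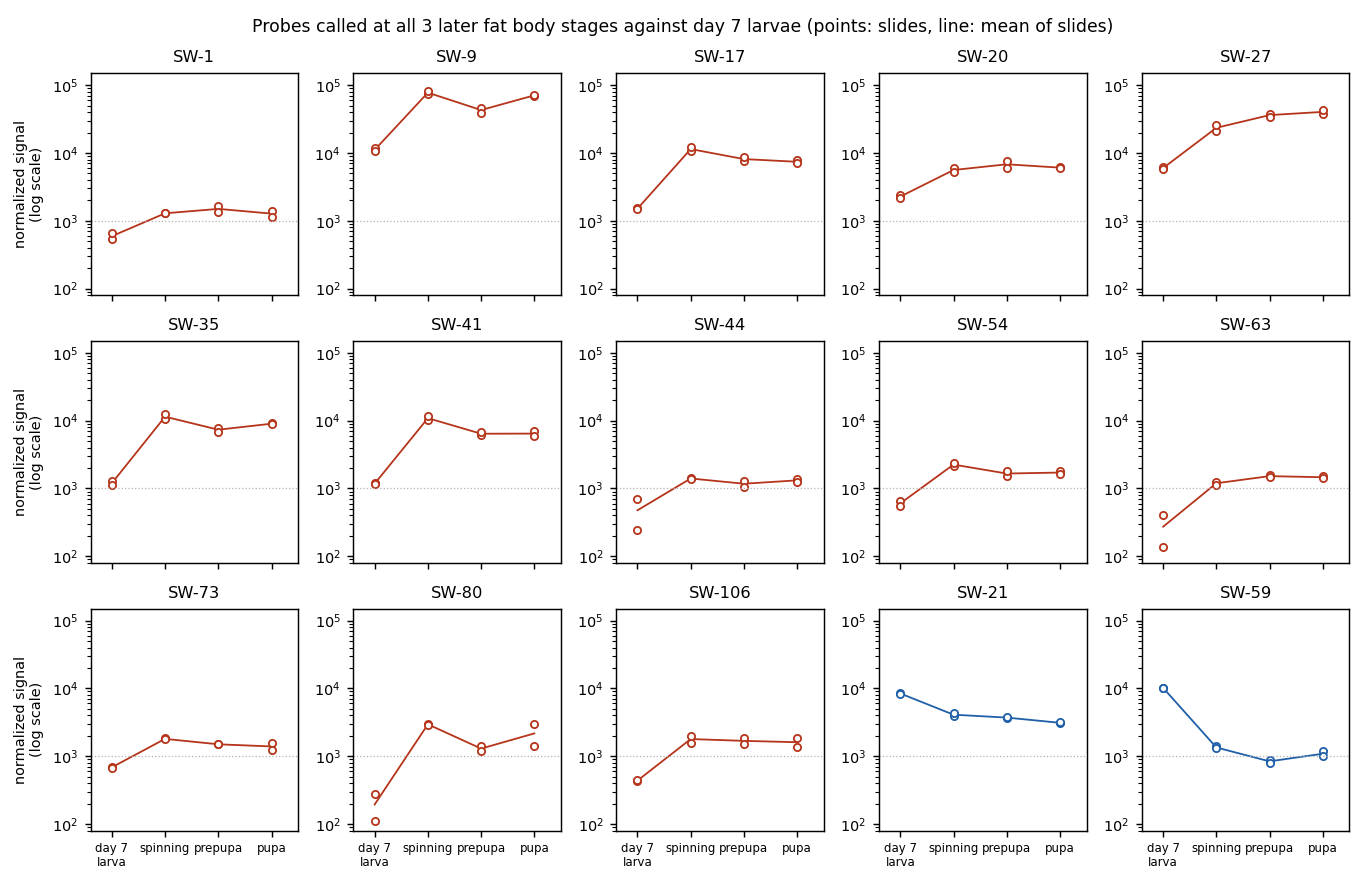
Normalized signal (log scale) of the 13 probes called higher and the 2 called lower at all 3 later fat body stages against day 7 larvae. Points are slides a and b and lines join the means of the slides. In most panels the step lies between day 7 and spinning, and the dotted line marks a signal of 1000.

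SW-80 had the largest difference from day 7 at every later stage. Its signals were 276 and 112 in day 7 larvae, 2987 and 2911 at spinning, 1399 and 1186 in prepupae and 2936 and 1394 in pupae. Every later slide stood above both slides of day 7. Spinning larvae were 16.8-fold higher (4.07 on the log2 scale, SD of the slides 0.65), prepupae 7.32-fold and pupae 11.5-fold. The day 7 signals were far under 1000 and the pupal slides differed from each other by more than 2-fold, so these sizes are loose. Pupal slide b, at 1394, also lay under the spots named blank on its array, at 1707.

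SW-35, SW-41 and SW-17 formed a group of like course. SW-35 had 1286 and 1107 at day 7, 10559 and 12351 at spinning, 7818 and 6901 in prepupae and 9130 and 8901 in pupae. SW-41 had 1210 and 1147, 10230 and 11538, 6123 and 6715, and 6942 and 5951. SW-17 had 1542 and 1478, 10681 and 12157, 7504 and 8757, and 7811 and 7012. All 3 were expressed but dim in day 7 larvae and highest at spinning, with 9.57-fold, 9.22-fold and 7.55-fold differences from day 7, and stayed at 4.90-fold or more in prepupae and pupae.

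SW-9 and SW-27 had the highest signals of the set. SW-9 had 11705 and 10550 in day 7 larvae, 74241 and 80890 at spinning, 46809 and 39154 in prepupae and 70136 and 71505 in pupae. All 6 pupal spots and 1 of 6 spinning spots of SW-9 were near the ceiling of the scanner, so pupae were at least 6.37-fold above day 7. SW-27 had 6145 and 5850, 20944 and 26078, 38163 and 34226, and 37701 and 43050. SW-27 was brighter in prepupae and pupae than at spinning, and it stood 3.90-fold over day 7 at spinning, 6.03-fold in prepupae and 6.72-fold in pupae.

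The remaining members of the set were dimmer or changed less. SW-63 had 407 and 139 at day 7, 1255 and 1135 at spinning, 1561 and 1481 in prepupae and 1515 and 1414 in pupae, with differences of 2.33, 2.68 and 2.62 on the log2 scale. SW-106 had mean signals of 436, 1789, 1681 and 1606. SW-20 had 2277, 5609, 6808 and 6078. SW-1, SW-44, SW-54 and SW-73 had day 7 means of 477 to 685 and later means of 1175 to 2252. The later signals of SW-1, SW-44, SW-63, SW-73 and SW-106 lay within the range of the blank spots on the fat body arrays, and the part of that background was not tested.

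Certain probes were called at 1 or 2 of the later stages only. SW-13 and SW-28 passed only in pupae, where SW-28 had 1261 and 1041 against 263 and 99 in day 7 larvae (2.82 on the log2 scale) and SW-13 had 1090 and 1046 against 173 and 144 (2.76). Their means at spinning and in prepupae were 958 and 645 for SW-13 and 567 and 661 for SW-28, under the level of 1000 that the call needs. Their pupal signals lay under the spots named blank on the same arrays (1512 and 1707), and the part of that background was not tested. SW-55, SW-68 and SW-92 passed in prepupae and pupae. SW-92 was brighter at each stage than at the one before, with 2267 and 2072 at day 7, 3632 and 4360 at spinning, 6516 and 6348 in prepupae and 10003 and 7834 in pupae, and SW-55 had means of 3468, 6654, 7328 and 11940. SW-46, one of the 10 brightest, was 2.51-fold and 2.53-fold higher at spinning and in pupae and passed in neither direction in prepupae (means of 6836 at day 7 and 17230, 12376 and 17318 later).

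The probe farthest below day 7 was SW-59. It had 10051 and 10276 in day 7 larvae, 1389 and 1300 at spinning, 870 and 806 in prepupae and 1183 and 989 in pupae. Spinning larvae had a log2 difference of -2.92 from day 7 larvae, prepupae of -3.60 and pupae of -3.23. The lowest day 7 slide stood above the highest later slide by far. The pupal signals of SW-59 lay under the spots named blank on the same arrays (1512 and 1707), and the part of that background was not tested. SW-21 was lower at all 3 stages by smaller amounts (-1.04, -1.18 and -1.44), with 8667 and 8143 at day 7, 3914 and 4263 at spinning, 3629 and 3782 in prepupae and 3036 and 3172 in pupae. SW-69 passed at spinning (-1.03) and in pupae (-1.15), and SW-101 passed only in prepupae (-1.03, with 900 and 561 there against 1531 and 1373 at day 7).

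Over the 14 specimens of the metamorphosis experiment, a slope per stage was fitted in every tissue with limma, on the 83 probes that reached 1000 in 3 specimens or more. For the fat body 0 probes (0%) passed an adjusted p of 0.05, and 12 had an unadjusted p under 0.05. SW-27 had a slope of 0.89 on the log2 scale per stage (standard error 0.27), SW-63 of 0.82 (0.26) and SW-80 of 0.94 (0.31), each with an adjusted p of 0.170 by limma, and SW-59 had -1.04 (0.37, adjusted p = 0.198). Leaving out the day 7 fat body, 0 probes passed and 0 had an unadjusted p under 0.05, and the median slope over the 83 probes was -0.06 against 0.15 with all specimens. Leaving out the spinning fat body, 6 probes were higher and 1 lower. The difference of the fat body slope from the mean slope of the other tissues passed for 0 probes (0%), with 3 at an unadjusted p under 0.05, and for 2 without the spinning fat body or 1 without the prepupal midgut.

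The slopes changed without day 7, and the mean of the 3 later fat body stages was also set against day 7 in limma. This step was chosen after the values that show it had been seen and day 7 is 1 specimen, so its sizes are given as a description, with no test. The median over the 83 probes was 0.58 on the log2 scale. Each tissue has 1 day 7 specimen, which the fit meets exactly. The standard errors of the steps and of their differences thus come from the later stages and hold nothing on the spread of day 7. SW-80 had a step of 3.49 (standard error 0.50), SW-35 of 2.93 (0.59), SW-41 of 2.70 (0.60), SW-17 of 2.54 (0.61), SW-63 of 2.54 (0.46), SW-9 of 2.47 (0.64) and SW-27 of 2.43 (0.62), and SW-59 had -3.25 (0.75). With array-median centring the steps were 2.92 for SW-80, 2.37 for SW-35, 2.14 for SW-41, 1.98 for SW-17, 1.98 for SW-63, 1.91 for SW-9 and 1.87 for SW-27, with -3.81 for SW-59, and the median was 0.01.

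SW-80, SW-63 and SW-28 are described beside the other tissues, chosen after their values were seen for a large fat body step less the mean step of body wall, silk gland and midgut. That difference was 3.43 for SW-80 (standard error 0.58), 2.78 for SW-63 (0.54) and 3.71 for SW-28 (0.81) on the log2 scale, and 2.99, 2.34 and 3.26 with centring. By the leading number of the array names, day 7 of the other tissues belongs to other sessions than the fat body. With session as a block, which leaves silk gland and midgut to compare with since day 7 body wall is alone in its session, it was 3.96, 2.85 and 4.67. SW-80 had 194, 2949, 1292 and 2165 from day 7 to the pupa in fat body, against 388, 886, 948 and 982 in body wall. From day 7 to the prepupa it had 1480, 1202 and 1296 in silk gland and 1638, 1054 and 756 in midgut. In day 7 larvae the fat body thus had the lowest SW-80 of the 4 tissues and at spinning the highest. Spots named blank stood at 3233 to 3811 on the day 7 arrays of silk gland and midgut, above SW-80 there. The part of that background in these values and steps was not tested. SW-28 had 181, 567, 661 and 1151 in fat body, against 13831, 3621 and 4713 in midgut, where the slides at spinning gave 7 and 7234. Its pupal fat body signal lay under the blank spots of the same arrays (1512 and 1707).

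SW-59 was lower after day 7 in body wall and midgut too. It had 10164, 1344, 838 and 1086 in fat body, against 9650, 2917, 965 and 2543 in body wall and 17484, 3747 and 2024 in midgut. In silk gland it was highest at spinning, with 12053, 20811 and 3642. The fat body step less the mean step of the others was -1.44 (standard error 0.87). SW-17, SW-27, SW-35 and SW-41 were likewise brighter after day 7 in body wall and midgut. SW-35 for example had 13995, 10179 and 8206 at the later stages of body wall after 1151 at day 7, and the differences of steps were 0.30 for SW-17, 0.95 for SW-27, 1.24 for SW-35 and 0.59 for SW-41.

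**Figure D3:**
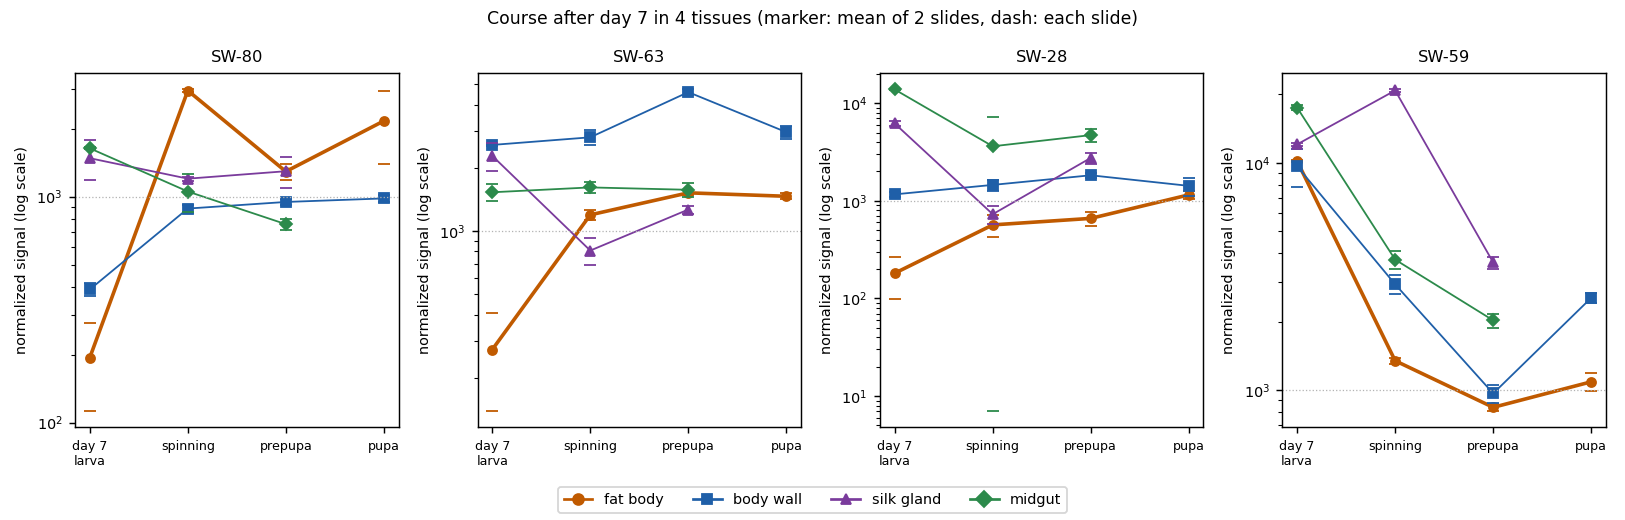
Normalized signal (log scale) of SW-80, SW-63, SW-28 and SW-59 by stage in fat body, body wall, silk gland and midgut. Markers are means of 2 slides and dashes are the slides. In fat body SW-80 had 194 at day 7 and 2949 at spinning, and SW-59 had 10164 at day 7 and 1344 at spinning, and SW-59 was brightest at day 7 in body wall and midgut as well.

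Between consecutive stages after day 7 little differed. Across probes the log2 signals of day 7 had a Pearson correlation of 0.866 to 0.872 with the later stages, and these had 0.942 to 0.967 with each other, a description over 106 probes that share a set of arrays. Prepupae had 3 probes higher (2.83%) and 4 lower (3.77%) than spinning larvae, and pupae had 1 higher (0.943%) and 3 lower (2.83%) than prepupae. The counts were the same with centring.

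The probes that were higher in prepupae were the muscle probe SW-7 together with SW-68 and SW-74. SW-7 had 1804 and 1523 at day 7, 1088 and 997 at spinning, 11199 and 10824 in prepupae and 2213 and 2137 in pupae. Prepupae were thus 10.6-fold above spinning larvae (3.40 on the log2 scale, SD of the slides 0.07), and pupae lay below prepupae by 2.34 on that scale. SW-68 had 892 and 1295, 993 and 895, 6732 and 6112, and 2780 and 2203, and SW-74 had 2227 and 2329, 1250 and 2055, 7943 and 7377, and 3886 and 3537. The prepupal slides of all 3 probes stood above every other fat body slide. At spinning SW-7 and SW-68 lay under the spots named blank on the same arrays (1216 and 2075), and those spots stood at 187 and 215 in prepupae. The part of that background was not tested, so the sizes against spinning are loose.

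These prepupal signals come from the specimen whose control spots stand apart. SW-7 in prepupae had 11011 in fat body, against 41118 in body wall, 56389 in midgut and 4199 in silk gland. All 6 body wall spots of SW-7 were near the ceiling of the scanner, so body wall and midgut have no order there. SW-68 also stood between silk gland and the others, with 6422 in fat body, against 33226 in body wall, 39277 in midgut and 2619 in silk gland. SW-74 did not, with 7660 in fat body, against 11474 in body wall, 4245 in midgut and 12826 in silk gland. The prepupal fat body had a Pearson correlation of 0.913 with the prepupal body wall across probes, where fat body and body wall of the other stages had 0.798 to 0.860. It had 0.888 with the prepupal midgut, against 0.710 and 0.785 at day 7 and spinning, and 0.786 with the prepupal silk gland, against 0.722 and 0.733. The prepupal body wall shares the order of control spots, with zip21 above zip15 by 3.08-fold and 3.34-fold. The prepupal midgut does not, at 0.343 and 0.266 times zip15. The part of this in the correlations was not tested. SW-7 is the only probe tied to another cell type, and 1 probe does not give the muscle content of a specimen. The part of muscle in the prepupal signals was not tested. The study reported miR-1, by array and Northern blot, in fat body from cocoon-spinning larvae to the end of spinning.

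**Figure D4:**
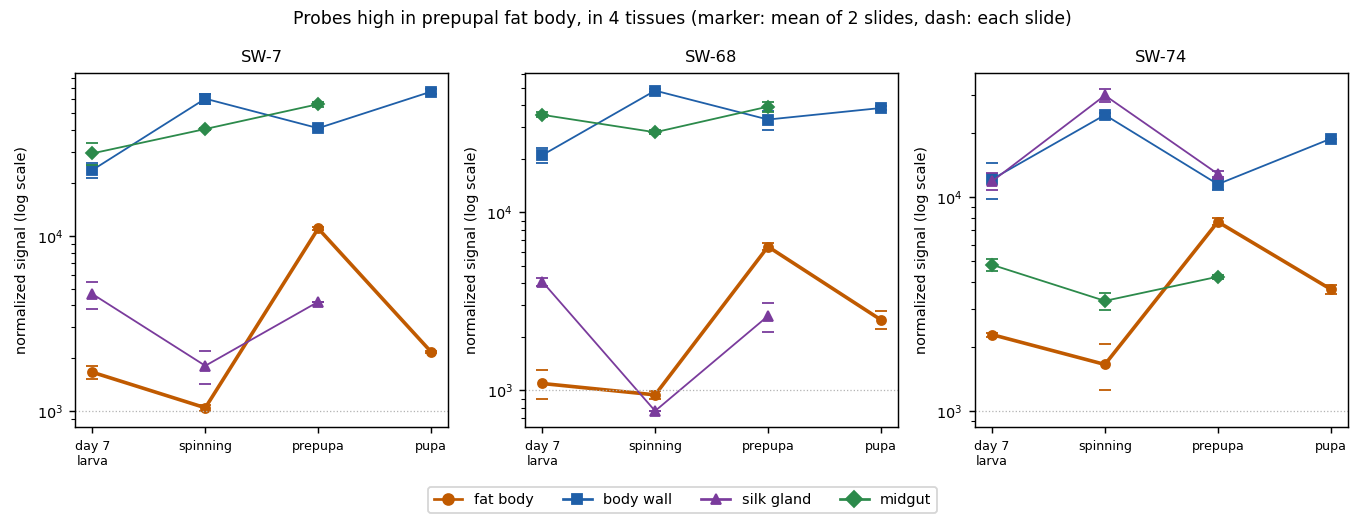
Normalized signal (log scale) of SW-7, SW-68 and SW-74 by stage in fat body, body wall, silk gland and midgut. Markers are means of 2 slides and dashes are the slides. In fat body SW-7 stood at 11011 in prepupae and at 1043 to 2175 at the other stages, below body wall and midgut throughout.

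Lower in prepupae than at spinning were SW-80, SW-101, SW-6 and SW-100. SW-80 had a log2 difference of -1.19, and the other 3 differed by 2.00-fold to 2.08-fold. SW-6 had 1473 and 1555 at spinning, 655 and 819 in prepupae and 1545 and 1345 in pupae, after 666 and 400 at day 7. SW-100 showed the same dip, with 2916 and 4122, 2160 and 1389, and 5189 and 4697 from spinning to pupa. SW-100 was the only probe higher in pupae than in prepupae, by 1.51 on the log2 scale, and SW-7, SW-68 and SW-74 were the lower ones. On the signals before scaling 0 probes were lower and 5 higher in prepupae against spinning, so these 4 calls need the array factors.

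The fat body was then set against the mean of body wall, silk gland and midgut, with stage as a factor, in limma over the 14 specimens. In fat body 4 of 83 probes were higher (4.82%) and 21 lower (25.3%). On the log2 scale SW-18 was 2.26 higher (standard error 0.39 and limma adjusted p = 5.77e-06), with 13427 to 21088 in the 4 fat body specimens (median 14315), against 1740 to 6387 in the 10 others (median 3113). SW-100 was 2.56 higher (0.50, adjusted p = 5.50e-05), with 1549 to 4943 in fat body, against 65.8 to 1334. Neither SW-18 nor SW-100 overlapped between fat body and the other tissues. Overlap was looked at only in probes picked by the size of the difference and was not counted over the 83. The lowest signal of SW-100 in the other tissues, 65.8, lies under the floor of 100 used in the fit. SW-45 was 1.37 higher (0.34, adjusted p = 0.00138), with 38635 to 59654 in fat body (median 42916), against 5301 to 38967 (median 20833), and 9 of the 10 other specimens lay below the lowest fat body specimen. SW-9, near the ceiling in pupal fat body, was at least 1.01 higher (0.37, adjusted p = 0.0311) and its ranges overlapped. It lost the call without any of 7 specimens in turn (log2 difference of 0.72 or more, adjusted p up to 0.164), namely body wall of day 7 or of pupae, silk gland at spinning, midgut of prepupae, or spinning, prepupal or pupal fat body.

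Lower in fat body were above all the muscle probe SW-7 and SW-68. SW-7 was near the ceiling of the scanner in all 6 spots of spinning and of prepupal body wall, 1 of 6 in pupal body wall and 2 of 6 in spinning midgut, so its log2 difference of -2.87 (standard error 0.40, adjusted p = 8.27e-08) is the least it can be. It had 1043 to 11011 in fat body (median 1919), against 1812 to 66465 in the others (median 35107). SW-68 had -2.77 (0.41, adjusted p = 1.94e-07), with 944 to 6422 in fat body, against 766.5 to 48302. Body wall and midgut, which hold muscle, were above every fat body specimen for both probes, and the silk gland overlapped with the fat body. SW-40 (-1.87) and SW-74 (-1.73) followed among probes at 1000 or more in at least 3 fat body stages, with limma adjusted p of 0.000195 and 0.000521. SW-40 had 1241 to 1969 in fat body, against 897 to 10744 (medians 1504 and 5204). SW-74 lost the call with array-median centring (limma adjusted p = 0.163). Of the 83 probes tested, 25 were under 1000 at every fat body stage and entered through the other tissues alone, and so did 3 of the 21 lower ones, SW-60, SW-93 and SW-98. SW-28 reached 1000 at 1 fat body stage and SW-6 and SW-49 at 2, so they too passed the filter only with the other tissues. The lower calls of these 3 and of SW-6, SW-28 and SW-49 follow in part from that filter, and no size is given here. SW-28 lost its call with session as a block (limma adjusted p = 0.131). SW-60 also lost its call with the session block (adjusted p = 0.191) and without the day 7 fat body (adjusted p = 0.0635). Spots named blank stood at 99 to 4123 on the arrays of the other tissues, against 187 to 2075 on the fat body arrays. The part of that background in the differences between tissues was not tested.

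**Figure D5:**
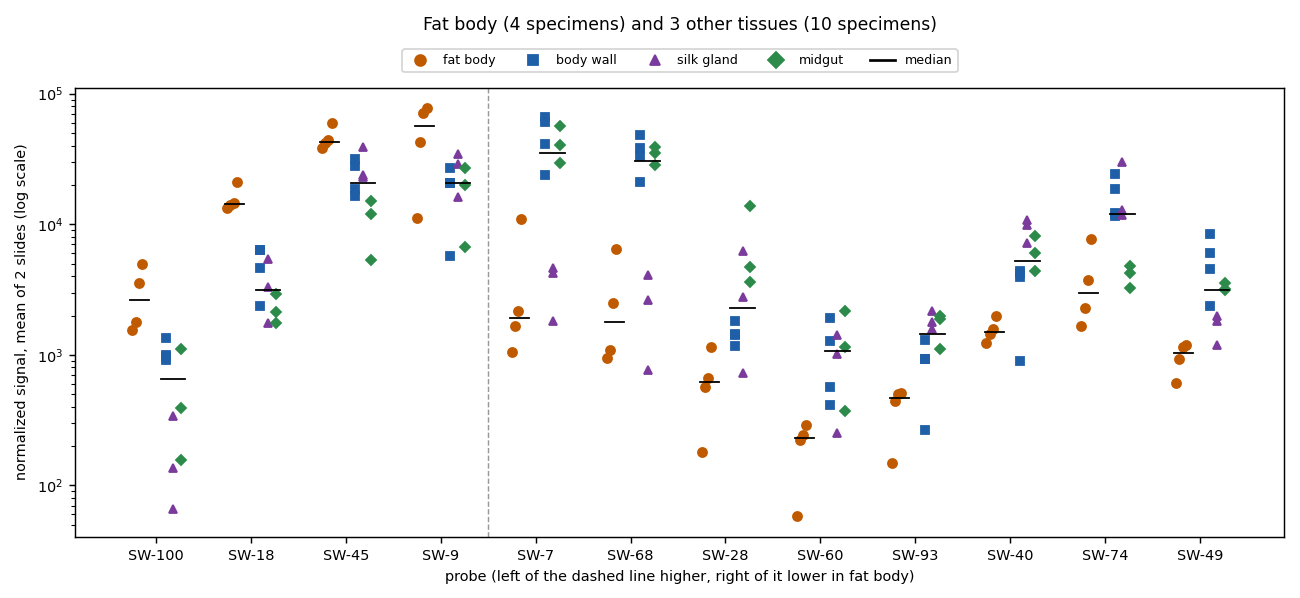
Normalized signal (log scale) of the 4 probes that were higher and the 8 that were lowest in fat body by the size of the difference, for the 4 fat body specimens and, to their right, the 10 specimens of body wall, silk gland and midgut. Each point is the mean of 2 slides and bars are medians. SW-60 and SW-93 were under 1000 at every fat body stage and entered through the other tissues alone. SW-28 and SW-49 reached 1000 at 1 and 2 fat body stages, so they passed the filter only with the other tissues. Among these probes, picked by size, the fat body lies above all others for SW-18 and SW-100. For SW-7 its 4 points lie at 1043 to 11011 with a median of 35107 in the others.

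The counts against other tissues changed with scaling and session. The median log2 difference over the 83 probes was -0.61, and with array-median centring, at a median of -0.03, there were 11 higher and 9 lower. Without the day 7 fat body, 4 were higher and 11 lower. With session as a block there were 6 higher and 11 lower. Without the 3 specimens of unusual control spots there were 3 higher and 11 lower. SW-18, SW-45 and SW-100 were higher, and SW-1, SW-7, SW-40 and SW-68 lower, in 4 fits: the first one, that with centring, that with the block and that without the 3 specimens. SW-49 and SW-93 were lower in them too. SW-49 reached 1000 at 2 fat body stages only and SW-93 at none, so their calls follow in part from the filter. Against the 4 specimens of other tissues in the session of the fat body alone, 0 probes passed and 13 had an unadjusted p under 0.05, with SW-18 at 2.21 (adjusted p = 0.188) and SW-7 at -3.51 (adjusted p = 0.225) by limma.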

How the data were processed

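Small RNA from total RNA was labelled with Cy3 by T4 RNA ligase and hybridized to slides with 106 miRNA probes, each printed as 3 spots. The authors read spot intensities with LuxScan, subtracted the local background, set spots with no positive signal to 10, replaced spots that lay apart and scaled every array with a single factor. Their methods base the factor on a global median and their results on a global mean, and the fat body factors ran from 1.08 to 1.39. The deposited intensity values, the mean signal over the spots of a probe on a linear scale, were used. No flag for background is given in the files.

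A floor of 100 was applied, log2 was taken and both slides were averaged, so n counts specimens. No stage of a tissue has replicate specimens, and labels do not tie specimens to animals. The p-values of limma thus measure departures from the fitted slopes, or from added tissue and stage effects. Real changes that a fit leaves out are part of these departures and cannot be told apart from the spread between specimens. Tests used limma 3.58.1 in R 4.3.3 (lmFit, eBayes with a variance trend, Benjamini-Hochberg over the 83 probes tested). The fits were also run on simulated data without session or array-wide effects, so those runs say nothing about such effects. Summaries used Python 3.11.15 with pandas 2.3.3. Probes named in the text are those farthest apart, at most 5 in each direction among the calls of a stage comparison and 8 in each direction of a limma result, the 10 brightest and SW-7. Others appear as members of counts of called probes. Members, lists and comparisons were chosen with earlier results of these data known.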

Additional observations from a re-analysis of the deposited data

Results flagged for a closer look

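Among the 30 named probes, the lowest of the 4 fat body specimens stood far from the other 3 in 3: SW-53 (gap of 0.885 of the range of log2 signals), SW-93 (0.884) and SW-63 (0.86). In each the lowest was the day 7 larva, and SW-93 was under 1000 at every fat body stage. About 1 in 20 groups of this size, picked without their values, would stand apart so far by chance. A share of the named probes, SW-63 among them, was picked for distance from day 7, so that rate does not hold for them.

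In the pairs of tissues given here every later stage moved one way from day 7 in fat body and the opposite way in the other tissue, and these differences between single tissues were not tested. Values are the mean log2 difference from day 7 in fat body minus that in the other tissue. Against silk gland they were 4.19 for SW-28, 3.63 for SW-80, 3.52 for SW-63, 3.27 for SW-13, 2.8 for SW-60, 2.58 for SW-100, 2.08 for SW-93, 1.75 for SW-6 and 1.29 for SW-49. Against midgut they were 4.26 for SW-80, 3.8 for SW-28, 3.05 for SW-60, 2.16 for SW-93, 1.59 for SW-6 and -1.41 for SW-72. Against body wall they were -2.51 for SW-72, -1.71 for SW-21 and -0.709 for SW-38. SW-72 had 12673, 11538, 8157 and 7791 from day 7 to the pupa in fat body, against 2057, 6964, 8963 and 9238 in body wall. By the leading number of the array names, the day 7 fat body is of another session than day 7 silk gland, midgut and body wall. The effect of session on these values cannot be told apart from that of tissue. Spots named blank stood at 3233 to 3811 on the day 7 arrays of silk gland and midgut, against 1184 and 1695 in day 7 fat body. The part of that background was not tested. SW-60 and SW-93 were under 1000 at every fat body stage.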

How the results depend on the processing

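No paired analysis was possible because a and b are slides of the same RNA and were averaged. No difference of a named probe between stages or tissues changed sign under the alternatives. The order of stages by expressed probes, the balance of higher and lower calls and the median slope did change, as given above. In the stage comparisons against day 7, a floor of 1000 left 11, 11 and 13 probes higher at spinning, in prepupae and in pupae, and array-median centring gave 10, 13 and 10 lower. On signals before scaling 1 was lower in prepupae against day 7, and prepupae against spinning had 5 higher and 0 lower (2 lower with a floor of 1000). A 1.5-fold call gave 27 higher and 7 lower at spinning, 28 and 10 in prepupae and 7 lower in pupae, with 7 higher and 10 lower in prepupae against spinning and 8 higher in pupae against prepupae. With 1 slide only, probes lower at spinning ran from 1 to 3, those lower in prepupae against spinning from 2 to 4 and those higher in pupae against prepupae from 1 to 3.

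Leaving out specimens or slides gave 0 to 15 higher and 0 to 1 lower for the fat body course, the step forms included, and 0 to 3 higher for its difference from the others. The step, a form taken from the same values, gave 14 higher and 1 lower (6 higher centred), and 3 of the 14, SW-67, SW-93 and SW-105, were under 1000 at every fat body stage. Its difference gave 3 (2 centred, 4 with session as a block). These counts support nothing. Against other tissues, probes lower numbered 11 to 31 on leaving out, 39 with a floor of 1000, 11 with session as a block, 11 without the 3 specimens of unusual control spots, and 0 higher and 0 lower in the session of the fat body. Centring gave 11 higher and 9 lower. At a threshold of 2000, 23, 28, 28 and 31 probes were expressed, and 16 were highest at day 7 after centring. For single probes, 171 values of stage differences moved by less than the spread of slides and 74 by more. The 171 overstate the stability, since the 1.5-fold call alters no difference and its values could not move. A lower floor likewise could not move probes whose slides all lay above the floor in use. Of the values against other tissues, 260 kept their side of the threshold and 28 lost it.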

Other observations

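The U6 control spots of the pupal fat body stood at 70037 and 71022, near the ceiling of the scanner, against 24195 to 39810 on the other 6 fat body arrays.

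Fat body of day 3 larvae, of another session by the leading number of the array names, had array medians of 120.33 to 172. It had 18 to 22 probes at 1000 or more on its 4 arrays. These arrays are on another scale and were set against none of the others.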
